A study of Mus musculus with 6 samples.

Results

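Steroid-making cells take up cholesterol, move it between membranes, carry it into mitochondria and cut off its side chain to make pregnenolone, and 9 genes of that route were examined in mouse cumulus cells, the somatic cells around the oocyte. The members were chosen by gene symbol as all probe sets (groups of array probes read as 1 value) annotated to a single gene among Star, Cyp11a1, Fdx1, Fdxr, Por, Scarb1, Stard4, Abca1 and Npc1. This gave 17 of the 45101 probe sets of the array, for 7 of 18194 genes. Fdxr, the reductase that feeds electrons to ferredoxin, and Por, the reductase that serves microsomal P450 enzymes, had no such probe set and were not analysed here.

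The hCG-6h group (3 samples) came from wild-type female mice that received 5 IU of eCG at 21 days of age (equine chorionic gonadotropin, which drives follicles to grow) and, 46 h later, 5 IU of human chorionic gonadotropin (hCG, the ovulatory hormone) for 6 h. The hCG-0h group (3 samples) came from wild-type females given the same eCG for 46 h and no hCG. Every sample held cumulus cells of 50 cumulus-oocyte complexes, handled in medium with 5 µM milrinone, a phosphodiesterase inhibitor, in both groups. The titles give 6 h for all hCG-6h samples, whereas the descriptions give 6, 7 and 8 h for samples 1, 2 and 3. The labels name no strain, and nothing in them says that the samples of a group came from separate mice, so p-values measure the spread between these samples, which may be technical. The hCG-6h mice were also kept longer after eCG, and hCG and that added time cannot be told apart.

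The route begins with the receptor SR-BI, encoded by Scarb1, which takes cholesteryl esters from high-density lipoprotein, and with lysosomes, from which NPC1 releases the cholesterol of low-density lipoprotein. STARD4 shuttles sterol through the cytosol, and STAR brings cholesterol to the inner mitochondrial membrane, the step known to limit acute steroid output. There the P450 enzyme encoded by Cyp11a1 cleaves the side chain with electrons passed on by ferredoxin (Fdx1), while ABCA1 exports cholesterol from the cell. In the ovary this machinery is known for its rise around ovulation, when granulosa cells turn toward progesterone synthesis.

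All values are log2 levels made by RMA (robust multi-array average), in which 1 unit is a factor of 2. The median level of an array was 6.43 to 6.46, above a floor of 2.43 to 2.48. Changes are hCG-6h minus hCG-0h from limma, adjusted over all 45101 probe sets, with adjusted p under 0.05 as the threshold, and intervals are at 95%. The number of arrays limits the precision. Pearson's r across probe sets, which are not independent, was 0.9819 to 0.985 between samples of a group and 0.9434 to 0.9456 between groups.

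Most of the route was higher at hCG-6h. Of the 17 member probe sets 12 rose and 5 did not pass, against 7.52% of all probe sets that rose. Because the members were chosen with earlier results of these data known, the shares beside these counts describe and do not test. In 14 of the 17, all hCG-6h samples lay above all hCG-0h samples (16.6% of all probe sets), and the other 3 overlapped. No member probe set fell by limma (7.84% of all probe sets did). At limma's unadjusted p under 0.05 none was lower and 14 were higher, against 6593 and 6208 of all 45101 probe sets. Read at the brightest probe set of each gene, 5 of 7 genes rose (Star, Abca1, Cyp11a1, Fdx1 and Scarb1) and 2 did not pass (Stard4 and Npc1), with a median log2 change of 1.34. Over all 18194 genes 9.32% rose and the median was 0.0067. In 4 of the 7 genes the rise was at least 2-fold (5.03% of all genes). These counts take Cyp11a1 at 1448804_at, which was its brightest probe set over all samples through its hCG-6h level. At hCG-0h it averaged 5.82, against 7.02 on 1439947_at, which did not pass.

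**Figure D1:**
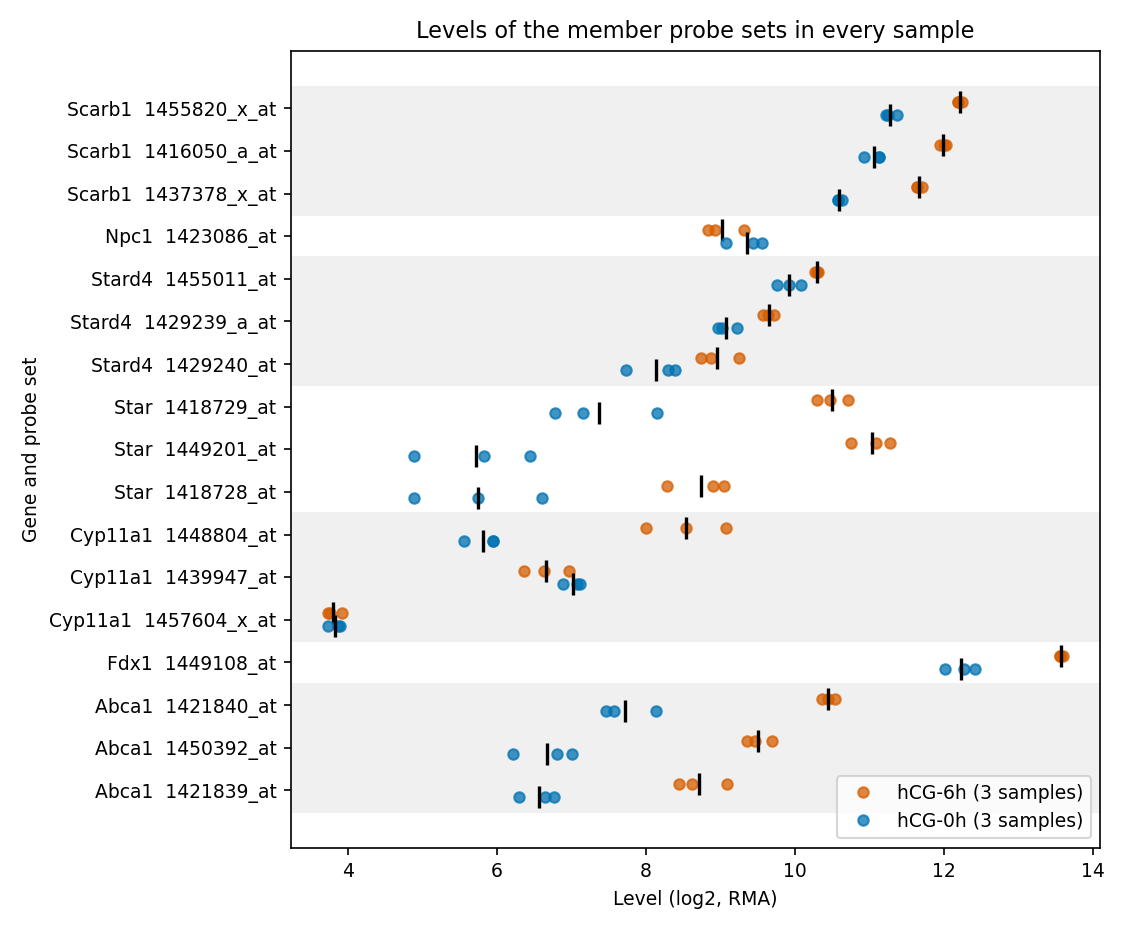
Level (log2, RMA) of each of the 17 member probe sets in the 3 hCG-6h samples (orange) and the 3 hCG-0h samples (blue), with group means as black ticks, ordered by the gene's place in the route. The groups stand apart in 14 rows and overlap for Npc1 and for the probe sets 1439947_at and 1457604_x_at of Cyp11a1.

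Scarb1, the receptor for high-density lipoprotein, was bright in both groups and rose by nearly the same amount on each of its 3 probe sets. Probe set 1455820_x_at read 12.19, 12.19 and 12.24 in the hCG-6h samples 1, 2 and 3, against 11.37, 11.24 and 11.22 in the hCG-0h samples. The lowest hCG-6h sample stood 0.82 above the highest hCG-0h sample. The log2 change was 0.93 ± 0.10 (SE), or 1.91-fold with an interval of 1.61 to 2.25 (limma adjusted p = 0.00183). On 1416050_a_at the levels were 12.02, 11.95 and 12.00 at hCG-6h and 11.13, 10.92 and 11.12 at hCG-0h, a change of 0.93 ± 0.11 (SE, limma adjusted p = 0.00238). This probe set repeats the separation seen on the first. The third, 1437378_x_at, read 11.64, 11.64 and 11.70 at hCG-6h against 10.58, 10.63 and 10.57 at hCG-0h, a change of 1.07 ± 0.09 (SE, limma adjusted p = 0.00084). Its interval ran from 1.79-fold to 2.45-fold. The suffix _x_at marks probe sets that may hold probes shared with other transcripts.

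Npc1, which releases cholesterol from lysosomes, did not pass. Its single probe set read 8.92, 8.83 and 9.31 at hCG-6h and 9.55, 9.43 and 9.07 at hCG-0h. The groups overlapped, because hCG-6h sample 3 stood above hCG-0h sample 3. The log2 change was -0.33 with an interval of -0.78 to 0.12 (limma adjusted p = 0.311), which leaves room for a fold between 0.584 and 1.08.

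Stard4, the cytosolic sterol carrier, was higher by small amounts. The brightest of its 3 probe sets, 1455011_at, read 10.29, 10.31 and 10.27 at hCG-6h and 9.75, 10.08 and 9.92 at hCG-0h. The groups stood only 0.19 apart, and the change of 0.37 ± 0.12 (SE) did not pass (limma adjusted p = 0.0895). On 1429239_a_at, where the suffix _a_at marks probes that match several transcripts of the same gene, levels were 9.72, 9.64 and 9.57 at hCG-6h against 9.02, 9.22 and 8.96 at hCG-0h. This was the probe set of the gene that passed, with a change of 0.58 ± 0.12 (SE, limma adjusted p = 0.02). It lost the call when sample 1 or 2 of hCG-6h was left out (adjusted p = 0.0679 and 0.0625), and likewise for sample 1 or 3 of hCG-0h (0.0547 and 0.0652). The dimmest, 1429240_at, read 8.74, 8.87 and 9.24 at hCG-6h and 7.73, 8.29 and 8.39 at hCG-0h, a change of 0.81 with an interval of 0.29 to 1.34 (limma adjusted p = 0.0542). It stood just outside the threshold, passed under 5 alternatives, centring on array medians among them (adjusted p = 0.0328 to 0.0488), and did not pass on removal of any single sample (adjusted p = 0.0679 to 0.143). The mean of the 3 probe sets passed as well (change 0.59, adjusted p = 0.0121).

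Star, the mitochondrial cholesterol importer, had the largest changes among the members. Its brightest probe set over all samples, 1418729_at, read 10.29, 10.71 and 10.47 at hCG-6h against 7.16, 8.15 and 6.78 at hCG-0h. All hCG-6h samples lay at least 2.14 above the hCG-0h samples, which were themselves widely spread. The change was 3.13 ± 0.35 (SE), or 8.73-fold with an interval of 4.91 to 15.5 (limma adjusted p = 0.00201). On 1449201_at the levels were 10.75, 11.27 and 11.09 at hCG-6h and 5.83, 4.88 and 6.44 at hCG-0h. The change there was 5.32 ± 0.39 (SE), 40.0-fold with an interval of 21.0 to 76.0 (limma adjusted p = 0.000399). The hCG-0h levels of this probe set lay at or below the array median, where background correction makes folds approximate. The third, 1418728_at, read 8.28, 8.90 and 9.05 at hCG-6h against 5.74, 6.60 and 4.89 at hCG-0h, a change of 3.00 ± 0.44 (SE, limma adjusted p = 0.00599).

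The hCG-0h samples were ordered differently by the probe sets of Star. On 1418729_at and 1418728_at sample 2 was the highest and sample 3 the lowest, whereas on 1449201_at sample 3 was the highest and sample 2 the lowest. At hCG-6h sample 1 was the lowest on all 3. The change on 1449201_at exceeded that on 1418729_at by 2.19, with an interval of 0.56 to 3.83, and this difference did not pass (limma adjusted p = 0.17 over 16764 such pairs). It was 1.38 without sample 2 of hCG-0h and ran up to 2.85 on removal of the other samples. The probe sets 1418728_at and 1418729_at differed in their change by -0.13, with an interval of -0.65 to 0.39 (adjusted p = 0.832).

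Cyp11a1, the side-chain cleavage enzyme, was read differently by its 3 probe sets. Probe set 1448804_at, which the platform annotation ties to a RefSeq transcript of the gene, read 8.00, 8.54 and 9.07 at hCG-6h against 5.94, 5.56 and 5.95 at hCG-0h. The groups stood 2.05 apart. The change was 2.72 ± 0.28 (SE), 6.59-fold with an interval of 4.15 to 10.5 (limma adjusted p = 0.00145). Its hCG-0h levels lay below the array median, where folds are approximate. Probe set 1439947_at, tied to another sequence record, read 6.36, 6.63 and 6.97 at hCG-6h and 6.89, 7.11 and 7.07 at hCG-0h. Its groups overlapped, with a change of -0.37 and an interval of -0.79 to 0.05 (limma adjusted p = 0.227). The third, 1457604_x_at, lay near the floor of the arrays at 3.92, 3.76 and 3.73 at hCG-6h and 3.89, 3.86 and 3.73 at hCG-0h, with a change of -0.02 (limma adjusted p = 0.92). Averaged over its 3 probe sets, Cyp11a1 changed by 0.78 (limma adjusted p = 0.00679), in place of 2.72 on 1448804_at. Where on the transcripts the probes of each set lie was not analysed here.

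**Figure D2:**
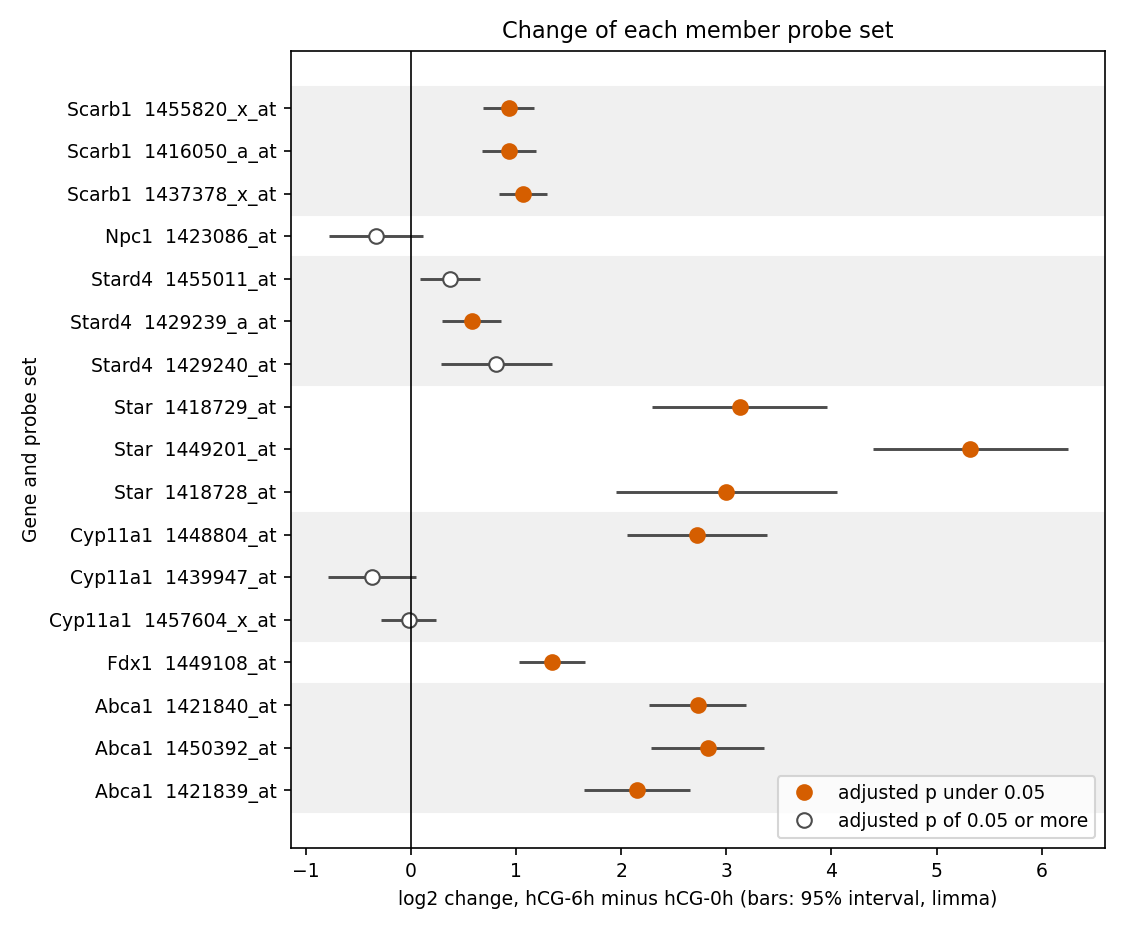
log2 change (hCG-6h minus hCG-0h) of each member probe set with its 95% interval from limma, filled where adjusted p was under 0.05. Star changed the most, up to 5.32 on 1449201_at, and Cyp11a1 changed by 2.72 on 1448804_at and by -0.37 and -0.02 on its other probe sets.

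The disagreement between 1439947_at and 1448804_at of Cyp11a1 was larger than the spread between samples. In each array the level of 1439947_at was set against that of 1448804_at on the log2 scale, and that difference was -1.64, -1.91 and -2.10 at hCG-6h against 0.95, 1.55 and 1.12 at hCG-0h. The changes of these probe sets therefore differed by -3.09, with an interval of -3.61 to -2.57 (limma adjusted p = 0.0033). For 1457604_x_at the difference of changes was -2.74, with an interval of -3.54 to -1.94 (adjusted p = 0.0125), which restates the rise of 1448804_at, since 1457604_x_at lay near the floor in both groups. This second call was lost when sample 2 of hCG-6h was left out (adjusted p = 0.0528), or sample 1 or 2 of hCG-0h (0.0505 and 0.0501). These were the 2 called among 10 pairs of member probe sets, and over all pairs on the array 2.7% were called. Without the dimmest probe sets, 1457604_x_at among them, 1 pair was called. None of the 8 other pairs, in Star, Scarb1, Stard4 and Abca1, passed (limma, with 2 of them at an unadjusted p under 0.05). Those nearest to passing were Star 1449201_at, given above, and Abca1 1421839_at (limma adjusted p = 0.277).

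**Figure D3:**
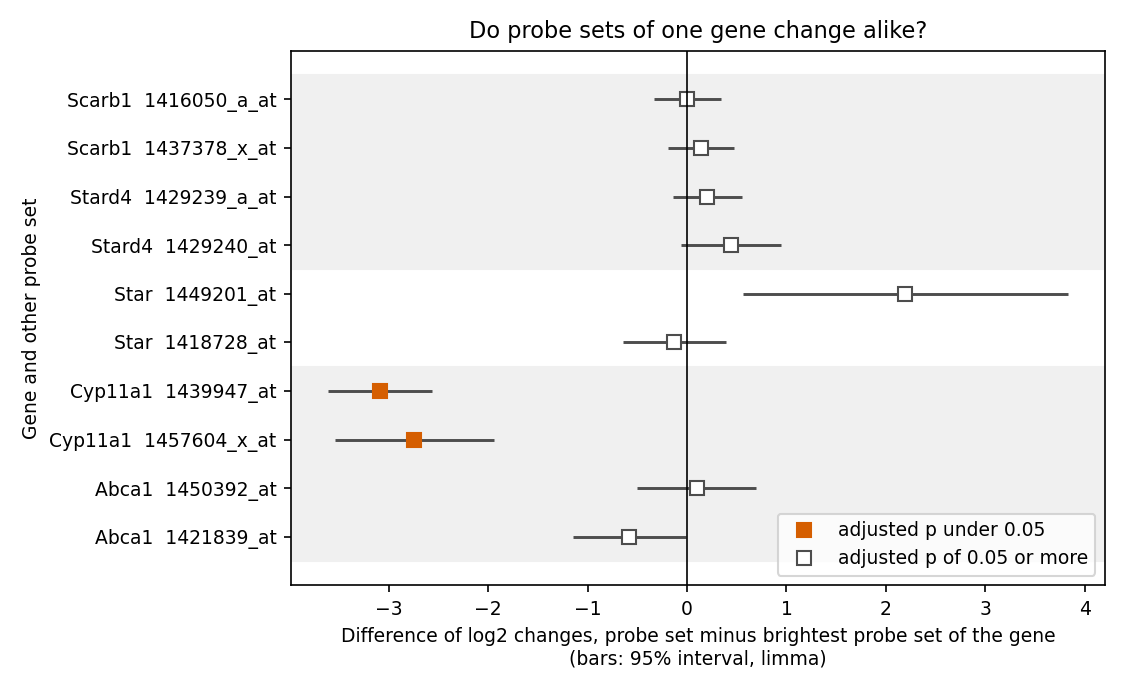
Difference between the log2 change of a probe set and that of the brightest probe set of the same gene, with 95% intervals from limma, filled where adjusted p was under 0.05. Both pairs of Cyp11a1 lie below 0, at -3.09 for 1439947_at and at -2.74 for 1457604_x_at, which was near the floor of the arrays, and the pair of Star with 1449201_at lies at 2.19 with a wide interval.

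Fdx1, the ferredoxin that hands electrons to the side-chain cleavage enzyme, was bright in both groups and rose. It read 13.60, 13.56 and 13.55 at hCG-6h and 12.01, 12.26 and 12.41 at hCG-0h. The hCG-6h samples lay within 0.05 of each other, 1.14 above the highest hCG-0h sample. The change was 1.34 ± 0.13 (SE), 2.54-fold with an interval of 2.04 to 3.15 (limma adjusted p = 0.00118).

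Abca1, the exporter, rose on all of its 3 probe sets. Probe set 1421840_at read 10.36, 10.54 and 10.44 at hCG-6h against 7.46, 7.57 and 8.13 at hCG-0h. The groups stood 2.23 apart, with a change of 2.73 ± 0.19 (SE), 6.62-fold with an interval of 4.81 to 9.10 (limma adjusted p = 0.00036). Probe set 1450392_at read 9.46, 9.35 and 9.69 at hCG-6h against 6.21, 7.01 and 6.81 at hCG-0h, a change of 2.82 ± 0.22 (SE, limma adjusted p = 0.000534). Probe set 1421839_at read 8.61, 8.44 and 9.09 at hCG-6h against 6.29, 6.65 and 6.76 at hCG-0h, a change of 2.15 ± 0.21 (SE, limma adjusted p = 0.00122). Its groups stood 1.68 apart.

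Promoter sequences are shown for Cyp11a1, Fdx1 and Abca1, which rose together, so that the elements named for such genes can be looked for. The windows run from 250 bases before to 50 bases after an annotated start, on the gene's strand, from RefSeq (GRCm38.p6), and 3 of the 7 measured members had one or more in that table. Cyp11a1 had 2, at annotated starts far apart. Capitals mark matches, on either strand, to the motifs searched.
Cyp11a1, first start, chr9:57997774-57998073 (+): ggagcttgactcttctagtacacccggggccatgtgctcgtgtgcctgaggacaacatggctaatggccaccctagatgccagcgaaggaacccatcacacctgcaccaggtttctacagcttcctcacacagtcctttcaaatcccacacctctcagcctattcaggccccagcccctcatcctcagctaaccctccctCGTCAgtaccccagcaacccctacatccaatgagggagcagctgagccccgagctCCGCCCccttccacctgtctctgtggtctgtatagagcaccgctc
Cyp11a1, second start, chr9:58014702-58015001 (+): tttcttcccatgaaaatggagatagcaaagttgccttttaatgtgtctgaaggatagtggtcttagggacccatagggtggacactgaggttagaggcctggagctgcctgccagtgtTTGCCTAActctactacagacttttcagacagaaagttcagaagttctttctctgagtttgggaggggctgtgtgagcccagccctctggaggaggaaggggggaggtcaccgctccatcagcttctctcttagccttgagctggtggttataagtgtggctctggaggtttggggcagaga
Fdx1, chr9:51963553-51963852 (-): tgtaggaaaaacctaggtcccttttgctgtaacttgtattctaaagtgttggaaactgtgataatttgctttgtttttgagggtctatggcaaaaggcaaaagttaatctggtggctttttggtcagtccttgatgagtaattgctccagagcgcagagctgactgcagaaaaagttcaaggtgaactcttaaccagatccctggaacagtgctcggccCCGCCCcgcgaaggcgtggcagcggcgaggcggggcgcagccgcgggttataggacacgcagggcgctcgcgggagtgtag
Abca1, chr4:53159846-53160145 (-): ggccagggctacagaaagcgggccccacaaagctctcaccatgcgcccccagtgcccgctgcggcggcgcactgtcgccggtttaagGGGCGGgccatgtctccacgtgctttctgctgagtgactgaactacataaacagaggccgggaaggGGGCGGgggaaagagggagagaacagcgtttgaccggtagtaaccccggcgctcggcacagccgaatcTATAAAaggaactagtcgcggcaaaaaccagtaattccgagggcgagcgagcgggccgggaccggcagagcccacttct

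The motifs searched were AAGGTCA (bound by NR5A receptors), TGACGTCA (the cyclic AMP response element, CRE), TGACG (the core of that element, contained in it), TTGCNNAA (C/EBP), AGATAA (bound by GATA factors), TATAAA (the TATA box), GGGCGG (the GC box) and a sterol regulatory element. The second Cyp11a1 window held a C/EBP match that begins 132 bases before the start, a motif held by 10.8% of all 32851 windows. The first Cyp11a1 window held the CRE core, on the opposite strand, 50 bases before the start (20.8% of windows) and a GC box just after the start. Abca1 held a TATA box 29 bases before the start (13.6% of windows) and GC boxes 163 and 97 bases before it. Fdx1 held a GC box 31 bases before the start, on the opposite strand, a motif held by 35.7% of windows. The NR5A motif, the full CRE, the GATA motif and the sterol regulatory element were in none of the 4 windows (in 4.72%, 1.79%, 11.2% and 0.0913% of all windows). These are matches of letters, and binding was not measured.

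Other genes of sterol and steroid handling were read from 6 lists with 85 measured genes, at 1 probe set per gene. Of these 17 rose and 13 fell, against 9.32% and 9.1% of all genes, with a median log2 change of 0.04. The lists, too, were chosen with earlier results of these data known. When a single sample was removed, 10 to 12 fell and 8 to 14 rose. The count of rises was 9, 9 and 8 on removal of samples 1, 2 and 3 of hCG-6h. On removal of samples 1, 2 and 3 of hCG-0h it was 14, 11 and 9. In those fits 2422 to 2668 of all probe sets rose and 2394 to 2954 fell, against 3390 and 3538 with all samples.

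Genes of lipoprotein uptake and cholesteryl ester handling went both ways. Of 13 measured, 4 rose and 2 fell, with a median log2 change of -0.12. Cav1, which encodes the caveolar protein caveolin-1, averaged 8.84 ± 0.17 at hCG-6h and 7.20 ± 0.36 at hCG-0h (SD, n = 3 each), a change of 1.64 (limma adjusted p = 0.00318). Lipe, the hormone-sensitive lipase that frees cholesterol from its esters, rose by 1.26 and Vldlr, a lipoprotein receptor, by 0.81 (limma adjusted p = 0.0448 and 0.0199). Nceh1, another cholesteryl ester hydrolase, fell to 8.16 ± 0.23 at hCG-6h, against 10.27 ± 0.14 at hCG-0h (SD, n = 3 each; change -2.11, limma adjusted p = 0.000395). The genes of this list that rose numbered 2, 1 and 1 on removal of samples 1, 2 and 3 of hCG-6h and 4, 2 and 1 on removal of those of hCG-0h, and 1 fell where sample 3 of hCG-6h or sample 2 of hCG-0h was removed.

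Genes that move sterol inside the cell were also split. Of 22 measured, 4 rose, 3 fell and 15 did not pass, with a median of 0.09. Gramd1c, a sterol transfer protein at membrane contacts, rose by 1.22 and Scp2, sterol carrier protein 2, by 0.97 (limma adjusted p = 0.0129 and 0.00285). Scp2 averaged 11.81 ± 0.11 at hCG-6h and 10.84 ± 0.11 at hCG-0h (SD, n = 3 each). Osbpl1a and Osbpl5, oxysterol-binding protein relatives, changed by -1.93 and -1.69 (limma adjusted p = 0.000663 and 0.000865). Npc2, which works with NPC1 in lysosomes, averaged 11.92 ± 0.08 at hCG-6h and 11.75 ± 0.08 at hCG-0h and did not pass (limma adjusted p = 0.348; named after its values were seen).

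In the list of sterol efflux and sterol sensing, none of 14 genes passed by limma. At limma's unadjusted p under 0.05, 3 were higher and 1 lower, against 2916 and 2850 of all 18194 genes. In limma with a trend and robust variance, or with 1 probe set per gene before the fit, 1 rose. Where the probe sets of each gene were averaged, 1 rose and 1 fell. Abcg1, a cholesterol exporter of this list, lay below the array median, where RMA compresses changes, at 5.26 ± 0.32 at hCG-6h and 5.01 ± 0.23 at hCG-0h (SD, n = 3 each; limma adjusted p = 0.472). Nr1h3, a sterol-sensing receptor known to drive Abca1, read 6.93 ± 0.39 at hCG-6h and 6.74 ± 0.26 at hCG-0h (limma adjusted p = 0.659). Both were named after their values were seen, as are the genes of this list with an unadjusted p under 0.05. Those were Srebf1 (change 0.61), Abcg4 (0.38) and Insig1 (0.34), which were higher, and Rxrb (-0.45), which was lower. The part of any of these genes in the rise of Abca1 was not tested.

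**Figure D4:**
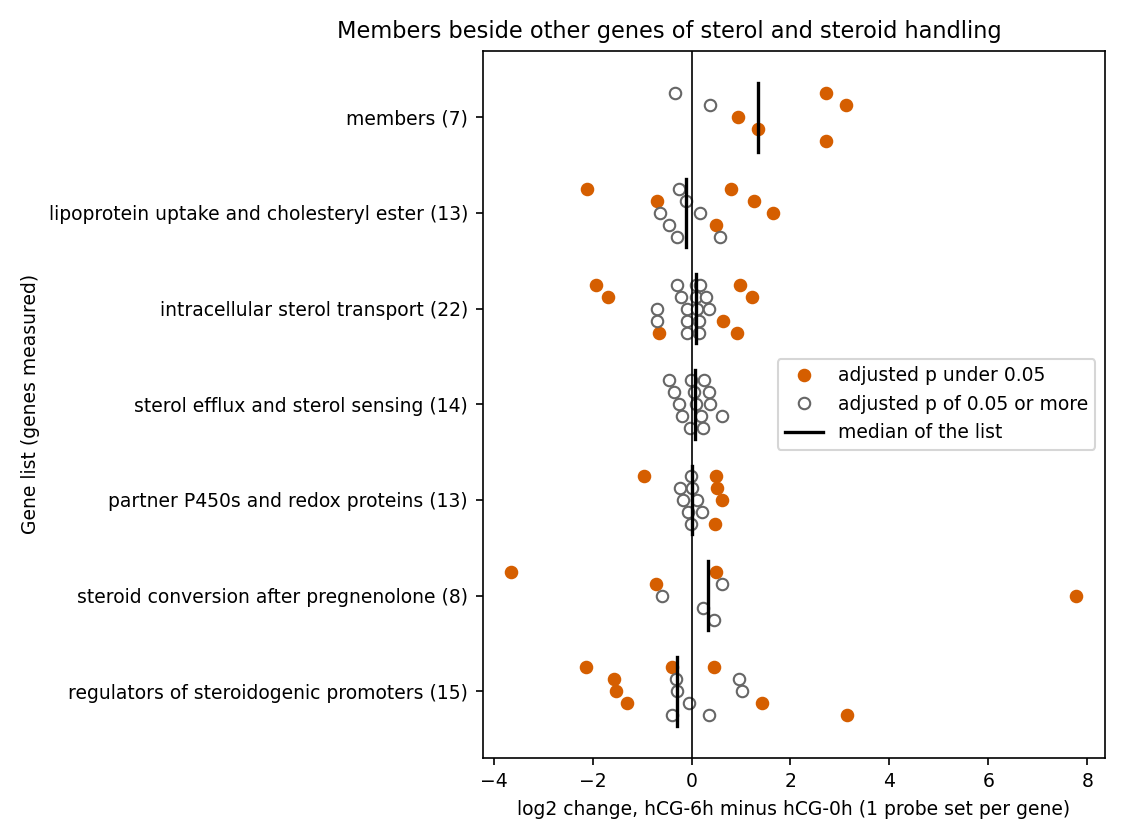
log2 change (hCG-6h minus hCG-0h, 1 probe set per gene) of the 7 measured members and of the genes of 6 lists, filled where limma's adjusted p was under 0.05, with list medians as black bars. The median of the members is 1.34, and the medians of the lists lie between -0.29 and 0.34.

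Partner P450s and redox proteins changed in both directions. Of 13 measured, 4 rose and 1 fell, with a median of 0.01, and those that rose numbered 0, 1 and 0 on removal of samples 1, 2 and 3 of hCG-6h and 2, 1 and 1 on removal of those of hCG-0h. Cyb5a, the cytochrome b5 that assists microsomal P450s, fell to 11.34 ± 0.04 at hCG-6h, against 12.29 ± 0.10 at hCG-0h (SD, n = 3 each; change -0.96, limma adjusted p = 0.00188). Sqle, a cholesterol synthesis enzyme that takes electrons from a P450 reductase, rose by 0.62, and Cyb5b, the mitochondrial cytochrome b5, by 0.49 (limma adjusted p = 0.0249 and 0.0343). Cyp11b1, a steroid hydroxylase of the adrenal, passed at levels near the floor, 4.18 ± 0.09 at hCG-6h and 3.67 ± 0.13 at hCG-0h (SD, n = 3 each; limma adjusted p = 0.0315).

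Enzymes acting after pregnenolone moved apart. Of 8 measured, 2 rose and 2 fell, and 1 rose on removal of any sample but sample 2 of hCG-0h, where 2 did. Hsd3b1, which turns pregnenolone into progesterone, was bright in both groups at 12.95 ± 0.03 at hCG-6h and 12.45 ± 0.13 at hCG-0h (SD, n = 3 each), a change of 0.50 (limma adjusted p = 0.0267). Sult1e1, the oestrogen sulfotransferase, rose by 7.78, and Hsd17b1, which makes oestradiol from oestrone, fell by 0.71 (limma adjusted p = 2.24e-05 and 0.0118). Hsd11b2, which inactivates glucocorticoids, fell to 7.97 ± 0.23 at hCG-6h, against 11.62 ± 0.04 at hCG-0h (SD, n = 3 each; change -3.65, limma adjusted p = 5.25e-05).

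Among regulators known to act on steroidogenic promoters, 3 of 15 rose and 5 fell, with a median of -0.29. Crem, a cyclic AMP-responsive factor, rose by 3.14, to 10.21 ± 0.06 at hCG-6h, against 7.07 ± 0.46 at hCG-0h (SD, n = 3 each; limma adjusted p = 0.000395). The nuclear receptors Nr0b1 and Nr0b2, known as repressors of such promoters, fell by 2.12 and 1.52 (limma adjusted p = 0.00159 and 0.00125). Nr5a2, an activating receptor of the NR5A family, fell by 1.57 (limma adjusted p = 0.000378), and 4 regulators fell with any 1 sample left out.

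The genes nearest to a member in pattern were found by the root-mean-square distance over the 6 samples between log2 profiles, each centred on its mean. For Star (1418729_at) they were Oasl2 (distance 0.09), Crem (0.22), Rpp25 (0.25), Wwc1 (0.26) and Htr1d (0.26). For Cyp11a1 (1448804_at) they were Lgals3 (0.24), Zfp949 (0.26), Elovl4 (0.27), Fndc10 (0.29) and Lepr (0.30). The distance follows the size of the change and the spread within groups alike, and carries no test.

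Cell type markers were read the same way. Of all genes 9.32% rose and 9.1% fell by limma. At its unadjusted p under 0.05, 2916 of 18194 genes were higher and 2850 lower. Cumulus and granulosa markers were present, with Inha, the inhibin alpha subunit, at 13.39 ± 0.03 in hCG-6h samples and 13.46 ± 0.05 in hCG-0h samples (SD, n = 3 each). Of 10 such markers 5 fell, Slc38a3 by 3.70, Fshr by 3.22 and Amhr2 by 2.65 among them, and the log2 of their summed signal was 15.23 to 15.31 at hCG-6h and 15.66 in all hCG-0h samples. The part of that fall in the results was not tested. Of 6 theca markers 1 fell, Ptch1, and none rose (limma, with 1 other lower at an unadjusted p under 0.05). Cyp17a1, which defines theca cells and lies past Cyp11a1 in the route, stood below the array median. It averaged 5.83 at hCG-6h and 5.84 at hCG-0h, and Hsd17b3 and Gli1 were below that median as well. Above it, Ptch1 averaged 9.04 at hCG-6h and 9.96 at hCG-0h, and Tagln 6.88 and 7.24. Acta2 averaged 6.44, near the median, at hCG-6h and 7.26 at hCG-0h. The log2 of the summed theca signal was 9.61 to 9.93 at hCG-6h and 10.44 to 10.60 at hCG-0h. None of 8 macrophage markers passed by limma, nor at an unadjusted p under 0.05, and their sum was 8.90 to 8.95 at hCG-6h and 8.67 to 9.02 at hCG-0h. The sum of 6 endothelial markers was 8.53 to 9.18 at hCG-6h and 7.63 to 8.37 at hCG-0h, with none past the threshold (Cdh5 and Kdr were higher at an unadjusted p under 0.05), and its part in the results was not tested. Of 11 oocyte markers 1 rose, Ooep, by 1.93, and 3 (Ooep, Dppa3 and Gdf9) were higher at an unadjusted p under 0.05. Zp1, Zp2 and Zp3, which define oocytes, averaged below the array median in both groups, as did the other oocyte markers except Ooep and Dppa3. Above that median, Ooep averaged 8.47 at hCG-6h and 6.53 at hCG-0h, and Dppa3 7.63 and 6.67. The sum of the oocyte markers was 9.71 to 9.89 at hCG-6h and 8.87 to 9.26 at hCG-0h. Of 4 markers of mural granulosa or luteal cells Cd34 rose by 2.71, Ptgfr rose by 0.59 and Nppc fell by 1.31, with a sum of 9.45 to 9.82 at hCG-6h and 10.02 to 10.57 at hCG-0h. Of 2 blood markers Alas2 fell, and their sum was 6.69 to 6.85 at hCG-6h and 7.61 to 7.78 at hCG-0h. The part of oocyte, mural or blood cells in the results was not tested. In such bulk samples a change in the number of cells of a type and a change in RNA per cell cannot be told apart.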

How the data were processed

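Total RNA of 6 samples of mouse cumulus cells was amplified and hybridised to single-colour arrays, 1 sample each, per the labels' protocols. The authors deposited log2 levels of 45101 probe sets, with 2 decimals. RMA, GCOS and version 1.1 of Affymetrix Expression Console appear in the submitters' processing notes. RMA compresses changes of dim probe sets. Detection calls were not used here, and the sources used here give no genome build for the arrays.

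Of the probe sets 34958 had 1 gene symbol in the platform annotation, 932 had several and 9211 were unlisted. limma 3.58.1 in R 4.3.3 (lmFit, eBayes, group alone, 6 samples) was fitted to all probe sets, with two-sided tests and Benjamini-Hochberg adjustment over all of them. Each gene was read at its probe set with the highest mean over all 6 samples. Differences between probe sets of a gene were fitted over all 16764 pairs. The scripts were tested on simulated data. Named are all members, up to 4 called genes of each list with the largest changes, and the 5 nearest patterns. The members and lists were chosen with earlier results of these data known.

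Alternatives were the sample number as a block, trend and robust variance, quantile normalisation again, median centring, leaving out the dimmest probe sets (33.3% by mean level), array weights, 1 probe set per gene before the fit, averaging the probe sets of a gene, hCG-6h sample 1 alone, and each sample left out. Some list members were not analysed here. Figures were drawn with matplotlib 3.10.9.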

Additional observations from a re-analysis of the deposited data

How the results depend on the processing

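With 3 samples per group, small changes such as those of Stard4 lie at the limit of the design. The 5 member genes that rose also rose under every alternative but hCG-6h sample 1 alone, where 2 of the 7 genes and 6 of the 17 probe sets rose. Averaging the probe sets of a gene kept the call of Cyp11a1 but gave a change of 0.78 in place of 2.72, since its other probe sets did not rise, and brought Stard4 past the threshold. In the fit of hCG-6h sample 1 alone, that sample is assumed to vary like the hCG-0h samples. No pair of probe sets was called there (0), 4 list genes rose, 7 fell, and the change of Cyp11a1 1457604_x_at turned to 0.0933. The sample numbers gave no pairing (correlations of deviations 0.0397, -0.00294 and 0.0196 for samples 1, 2 and 3). With the sample number as a replicate block 12 member probe sets rose and 11 list genes rose, in place of 17. Of all probe sets 2621 rose with the block, in place of 3390. The block moved Stard4 1429239_a_at above the threshold (adjusted p = 0.0558) and 1429240_at below it (adjusted p = 0.0328). Without the dimmest probe sets 1 pair of Cyp11a1 was left and called, since 1457604_x_at was removed. When a single sample was removed, 11 to 12 member probe sets rose, 1 to 2 pairs were called and 8 to 14 list genes rose. Calls over the whole array dropped too, with 2422 to 2668 probe sets higher in place of 3390. Over the same fits the change of Cyp11a1 1457604_x_at ran from -0.0817 to 0.0133, and differences of changes crossed 0 for Scarb1 1416050_a_at (-0.0467 to 0.0633), Abca1 1450392_at (-0.0417 to 0.338) and Star 1418728_at (-0.29 to 0.005). None of these values passed the threshold, and the cause of each was not tested.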
